A study of Mus musculus with 6 samples.

Results

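The 39 genes described here encode enzymes and regulators of antioxidant defence, glutathione metabolism and the pentose phosphate pathway. They were taken by gene symbol from a deposited table of 54532 genes, in which all 39 were found, and all 39 passed the filter on low values (a mean of at least 0.5 FPKM, which is the fragment count divided by gene length and by sequencing depth). RNA was sequenced from 2 groups of haploid mouse embryonic stem cells of strain 129SV, 3 libraries each: wild-type haploid cells (WT) and cells whose genotype is given as P53 - haploid. Haploid embryonic stem cells hold a single chromosome set and tend to become diploid in culture, and the series asks how blocked apoptosis affects this. The p53 group is titled P53ki in the sample names and p53-KO in the design, and is called p53-deficient below. The sources used here do not give how the allele was made or whether the libraries of a group came from separate cultures or clones. The p-values therefore rest on the variation among 3 libraries a group, possibly of technical origin, and the loss of p53 cannot be told apart from other differences between the cell lines.

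Reactive oxygen species are removed in cells by enzymes that draw their electrons from glutathione or thioredoxin, and both carriers are reduced again with NADPH, much of it made in the oxidative branch of the pentose phosphate pathway. Many of these genes are induced by the transcription factor NRF2, encoded by Nfe2l2, which is held low by its adaptor KEAP1 and acts with small MAF proteins on antioxidant response elements. p53 is known to control a number of antioxidant and metabolic genes in other settings.

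The core of the antioxidant response element, TGACNNNGC, was searched on both strands of the RefSeq promoters (GRCm38.p6, 250 bases before to 50 after each start site). The reference is strain C57BL/6J, and the sequence of the 129SV cells was not read. Promoters were listed for 33 of the 39 genes, and 10 of these (30.3%) held the core, against 14% of all 27025 genes in the table, counting a gene once if any of its promoters matched. The matches are shown because they are the letters through which NRF2 is known to act, each with 8 bases on either side, on the strand that reads TGAC first, with the core in capitals.

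Nfe2l2: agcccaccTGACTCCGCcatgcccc
Srxn1: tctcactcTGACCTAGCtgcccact
Gclm: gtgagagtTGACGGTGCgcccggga
Prdx1: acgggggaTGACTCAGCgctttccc
Pgd: ttcagagcTGACATTGCactgatcg
Mgst1: ccgcctccTGACCGTGCcaagcccc
Me1: tgccgccgTGACTCAGCgcttctcg
Txnrd1: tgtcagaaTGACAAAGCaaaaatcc
Sod1: cctgagtcTGACCACGCccaccttg
G6pdx: gtgtgcttTGACTGAGCtgacccgc

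The matches of Prdx1 and Me1 also hold the letters TGACTCA of the AP-1 site. Places are measured from the start site of the promoter that holds the match to the base of the core that comes first along the gene's own strand. Where the core is on the opposite strand, this is its last printed base. It lay 240 bases upstream in Nfe2l2, 134 in Gclm, 133 in Prdx1, 92 in Txnrd1, 57 in G6pdx, 56 in both Mgst1 and Sod1 and 6 in Me1. It lay downstream in Srxn1 (position 29) and Pgd (position 4). A start site can lie inside the listed gene, as in Txnrd1, which begins at 82833951 on chromosome 10 and has its match at 82859106 to 82859130. Of the genes with a match, Nfe2l2, Gclm, Txnrd1, Sod1 and G6pdx were higher in p53-deficient cells, Srxn1, Mgst1 and Me1 were lower, and Prdx1 and Pgd did not pass. The match was present in 5 of 12 genes called higher, 3 of 14 called lower and 2 of 7 not called. No promoter was listed for Gclc, called higher, or for Sod3, Gsr, Hmox1, Gsta4 and Prdx6, all called lower. The missing genes thus fall unevenly on the calls, and no comparison between them is drawn. Nqo1 had no match within the searched bases. A single decamer of the kind that p53 binds in pairs was found in 3 of the 33 genes (9.09%), against 9.55% of all genes in the table. Pairs of decamers were not searched. A match is a description of these letters and not a bound site.

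The targeted gene and the makeup of the cultures were examined first. Trp53, which encodes p53, stood at 64.5, 69.8 and 69.6 FPKM in WT and at 9.71, 9.71 and 9.98 FPKM in p53-deficient libraries (log2 fold change -2.67, SE 0.0371, limma adjusted p = 3.57e-08). Over the 15144 genes with a test, p53-deficient cells were called higher in 5341 and lower in 4733, together 66.5%, so a passing test is the usual outcome in this comparison. The split was 4216 higher and 5650 lower when each library was scaled by its median ratio. The libraries held 11536412 to 21218976 reads in listed genes, the fewest in p53-deficient replicate 2. Of 10 markers of pluripotent cells 4 were higher, 5 lower and 1 not called. Pou5f1, Nanog and Sox2 among them had means of 371, 330 and 182 FPKM in WT and 407, 221 and 173 FPKM in p53-deficient cells. All 22 fibroblast markers, listed for the feeder cells that such cultures can hold, were lower in p53-deficient libraries (median log2 fold change -2.08), and none was at 0 in a group. Their summed level was 1213 to 1237 FPKM in WT and 288 to 298 FPKM in p53-deficient libraries, 4.17 times lower, with the highest WT means in Sparc (241 FPKM), Col1a1 (210 FPKM) and Lox (158 FPKM). Single markers were 1.59 to 12.7 times lower by the ratio of means, and their pooled reads were 4.65 times lower. Reads of the Y-linked genes Ddx3y, Eif2s3y, Kdm5d and Uty were 9.98 times lower (95% exact binomial interval 8.15 to 12.3, counting error only). Of 6 primitive endoderm markers 2 were high enough to test, Gata6 and Dab2, and both were lower. Among those under the filter, Sox7 went the other way without overlap, from 0.291 ± 0.0275 to 0.656 ± 0.0982 FPKM. The mean of Foxa2 was also higher, and those of Gata4 and Sox17 were lower. The summed level of the 6 was 4.56 to 4.74 FPKM in WT and 1.47 to 1.85 FPKM in p53-deficient libraries, 2.77 times lower. Dab2 alone made up 61.2% of the WT sum. In bulk RNA, fewer cells of a type and less RNA per cell cannot be told apart, and the part that fibroblasts or endoderm cells play in the differences below was not tested.

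Most of the 39 genes differed between the groups, and most by little. Of the 39, 13 were higher, 19 were lower and 7 did not pass in p53-deficient cells, which makes 82.1% called against 66.5% of all genes tested (35.3% higher and 31.3% lower). The gap was smaller among genes of mean FPKM at least 5, where 82.9% of 35 members were called against 76.7% of 7752 genes. In 34 of the 39 (87.2%) the groups did not overlap, against 71.4% of all genes. With scaling by the median ratio the counts were 9 higher and 21 lower. The median log2 fold change was -0.05, against 0.03 over all genes. In 30 of the 39 (76.9%, against 71.2% of all genes) the change was under 0.5 on the log2 scale in either direction. No member rose 2-fold, against 3.42% of all genes. The members that fell at least 2-fold were Mgst1, Gpx3, Gpx8, Sod3 and Hmox1, 5 of 39, where 6.3% of all genes did so. The summed level of all 39 was 3308 to 3379 FPKM in WT and 3141 to 3295 FPKM in p53-deficient libraries, so that the groups did not overlap while the means differed by a factor of 1.04.

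**Figure D1:**
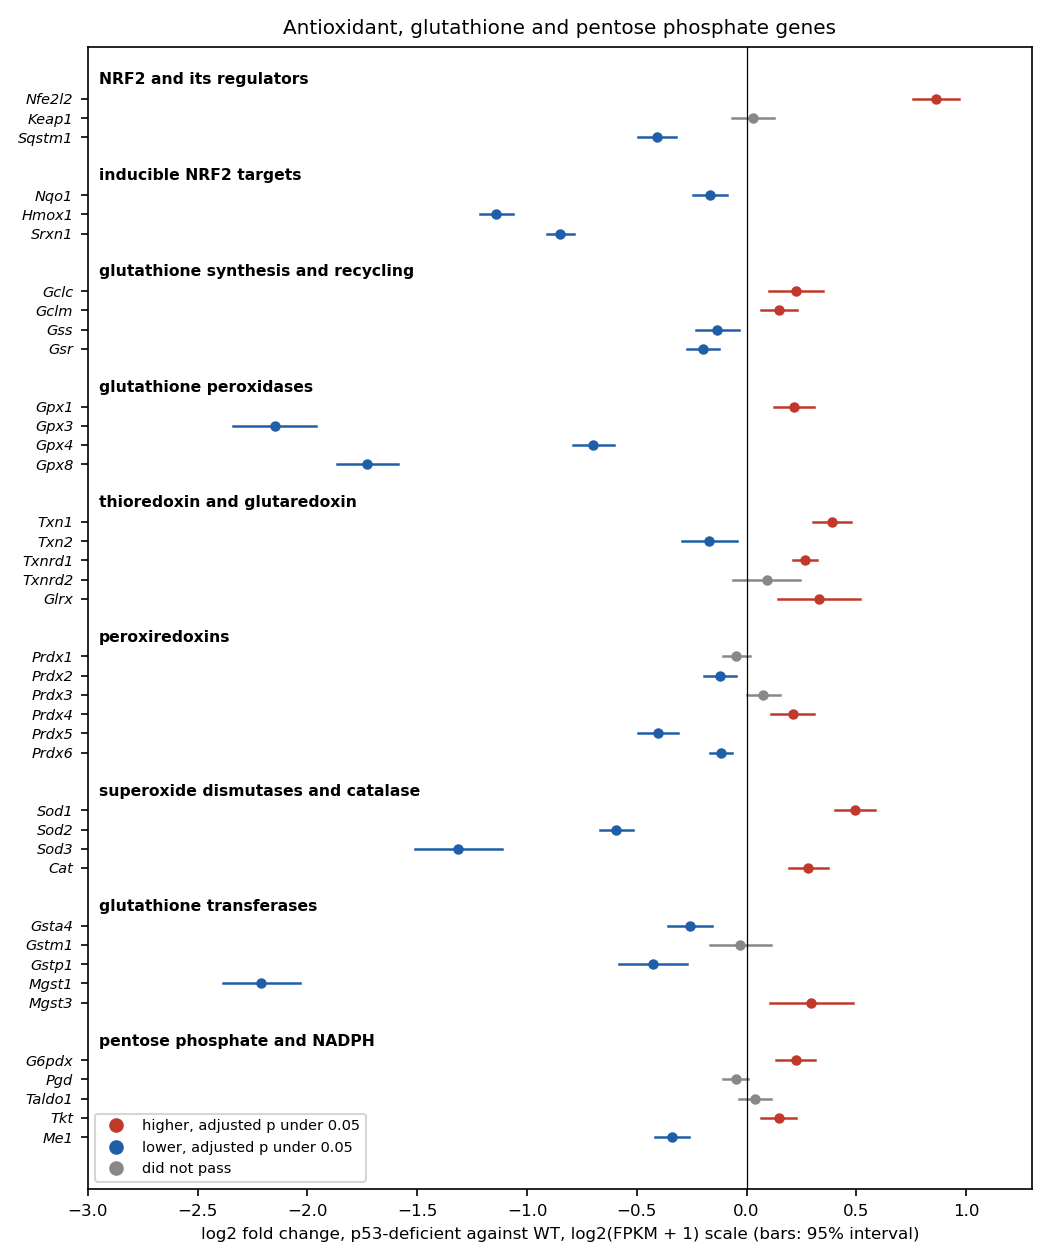
Log2 fold change of each of the 39 genes in p53-deficient against WT cells on the log2(FPKM + 1) scale, grouped by role. Points are limma estimates over 3 libraries per group, bars are 95% intervals and colour gives the call. Mgst1, Gpx3, Gpx8, Sod3 and Hmox1 lie below -1, and Nfe2l2, at 0.86, lies furthest to the right.

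**Figure D2:**
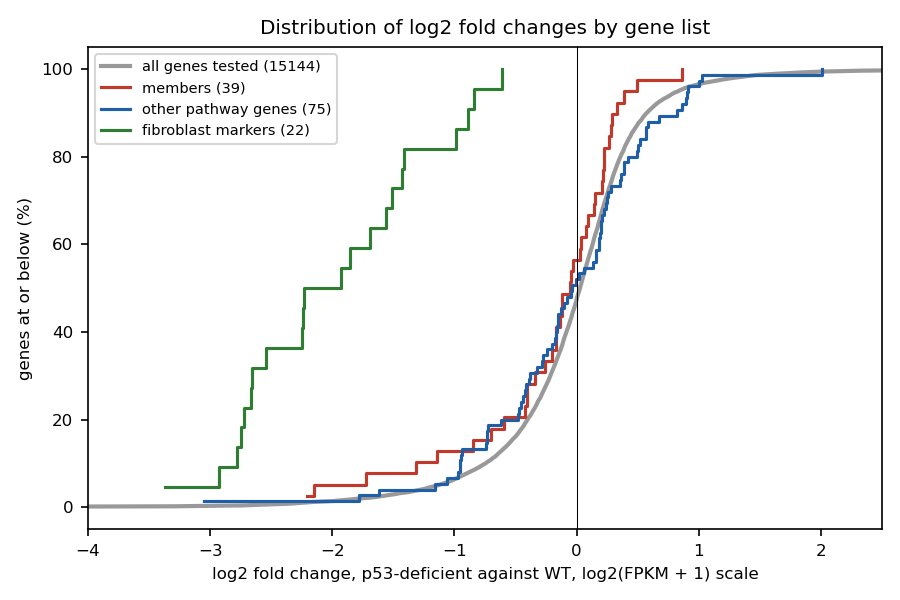
Cumulative share of genes (%) at or below each log2 fold change, for all 15144 genes tested, the 39 members, 75 other genes of the same pathways and 22 fibroblast markers. The member curve runs close to that of all genes, apart from a tail below -1, while all fibroblast markers lie below -0.6.

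The regulators of the pathway moved in different directions. Nfe2l2 had the largest rise among the 39. It stood between 19.97 and 20.58 FPKM in the WT libraries and at 38.4, 35.2 and 39.2 FPKM in p53-deficient libraries. Every p53-deficient library therefore lay far above every WT library, by 1.86-fold in the means (log2 fold change 0.86, SE 0.0431, limma adjusted p = 6.42e-06). The gene (ENSMUSG00000015839) lies on the minus strand of chromosome 2 from 75675513 to 75704641. The bases upstream of its start site are shown because the gene holds a match to the element of its own product, in capitals at the left end (GRCm38, chr2:75704664-75704913, minus strand).

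Nfe2l2: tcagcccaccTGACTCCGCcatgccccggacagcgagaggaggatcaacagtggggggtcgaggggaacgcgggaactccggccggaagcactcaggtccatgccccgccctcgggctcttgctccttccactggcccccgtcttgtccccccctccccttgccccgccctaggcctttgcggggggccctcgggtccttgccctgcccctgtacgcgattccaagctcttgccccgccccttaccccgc

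Keap1, the adaptor that sends NRF2 to degradation, was at 9.62, 8.84 and 9.60 FPKM in WT and at 9.66, 9.44 and 9.61 FPKM in p53-deficient libraries. The groups overlapped and the gene did not pass, with a 95% interval of -0.07 to 0.13 around a log2 fold change of 0.03. Sqstm1, which encodes the autophagy receptor p62 that binds KEAP1, was at 144, 147 and 147 FPKM in WT and at 115, 105 and 110 FPKM in p53-deficient libraries. It fell with a log2 fold change of -0.41 (SE 0.0357, limma adjusted p = 8.02e-05), without overlap between the groups. Exons of Mrnip on the opposite strand cover 17.3% of its exon length, and the kit is not stated to keep the strand.

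Targets of NRF2 went both ways: Hmox1, Srxn1 and Nqo1 were lower in p53-deficient cells, while Gclc, Gclm and Txnrd1, described further on, were higher. Outside the 39 genes, 13 that had been listed as NRF2 targets were tested, of which 6 were higher, 3 were lower and 4 did not pass. This makes 69.2% called, near the 66.5% of all genes tested (35.3% higher and 31.3% lower). The 6 include Hmox2 (log2 fold change 0.21), which is not an established NRF2 target, so the count describes the list. Exons of Cdip1 on the opposite strand cover 40.2% of the exon length of Hmox2. Hmox1 (chromosome 8, 75093621 to 75100589) encodes heme oxygenase 1, which degrades heme. It was at 139, 144 and 141 FPKM in WT and at 64.3, 61.2 and 65.7 FPKM in p53-deficient libraries. This was a fall of 2.22-fold with no overlap (log2 fold change -1.14, SE 0.0317, limma adjusted p = 5.65e-07). Srxn1 encodes sulfiredoxin, which repairs over-oxidised peroxiredoxins. Its WT libraries held 56.4, 56.2 and 55.7 FPKM and its p53-deficient libraries 31.7, 30.2 and 30.3 FPKM, again without overlap (log2 fold change -0.85, SE 0.0262, limma adjusted p = 8.53e-07). Nqo1, the NAD(P)H quinone dehydrogenase often used as a readout of NRF2, moved least of these, from 62.2, 66.9 and 64.0 FPKM to 55.9, 57.7 and 58.1 FPKM. It fell with a log2 fold change of -0.17 (SE 0.0328, limma adjusted p = 0.00386). The summed level of Hmox1, Srxn1 and Nqo1 was 258 to 267 FPKM in WT and 149 to 154 FPKM in p53-deficient libraries. In these libraries the summed fibroblast markers were 4.17 times lower as well, and their part in the falls of Hmox1, Srxn1 and Nqo1 was not tested.

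Genes of glutathione synthesis and recycling changed by at most 1.18-fold, those of the first step upward and the others downward. Gclc and Gclm encode the catalytic and modifier subunits of glutamate-cysteine ligase, which makes the first and rate-limiting bond of glutathione. Gclc went from 21.4, 24.2 and 23.3 FPKM in WT to 26.0, 27.8 and 27.3 FPKM (log2 fold change 0.23, SE 0.0504, limma adjusted p = 0.0069). Gclm went from 22.6, 21.9 and 23.3 FPKM to 25.3, 24.5 and 25.8 FPKM (log2 fold change 0.15, SE 0.0338, limma adjusted p = 0.00742). In both genes the groups did not overlap, but neither passed with scaling by the median ratio (0.13 and 0.05, adjusted p = 0.0732 and 0.235) or quantile normalization (0.14 and 0.06, adjusted p = 0.0607 and 0.18). The 250 bases upstream of Gclm are printed as a promoter in which the core lies on the opposite strand, so that the capitals show its reverse complement (GRCm38, chr3:122245307-122245556, plus strand).

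Gclm: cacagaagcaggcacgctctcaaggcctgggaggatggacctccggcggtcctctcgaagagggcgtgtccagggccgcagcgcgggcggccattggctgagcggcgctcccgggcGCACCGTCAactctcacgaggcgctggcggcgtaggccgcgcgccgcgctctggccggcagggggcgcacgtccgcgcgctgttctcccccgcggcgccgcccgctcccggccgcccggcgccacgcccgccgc

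Gss encodes glutathione synthetase, which adds glycine in the last step. It went from 24.3 ± 0.546 to 22.1 ± 1.14 FPKM (SD, n = 3 per group; log2 fold change -0.13, limma adjusted p = 0.0259). This call ended when WT replicate 2 or 3 or p53-deficient replicate 2 or 3 was left out, with adjusted p between 0.063 and 0.0838, and with the replicate number as a block (adjusted p = 0.0544). Gsr, the NADPH-dependent reductase of oxidised glutathione, fell from 71.6 ± 1.01 to 62.3 ± 2.2 FPKM (log2 fold change -0.20, SE 0.0308, limma adjusted p = 0.00128).

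The glutathione peroxidases, which reduce hydrogen peroxide and lipid peroxides, ranged from a small rise to falls of several-fold. Some carry selenocysteine in the active site, encoded by a TGA codon that would otherwise end translation, and others have cysteine there. The codon with 12 bases on either side, from GENCODE M21 transcripts, is printed to show which members use it, with the codon in capitals. For Gpx8 and Gpx7 it is the codon that aligned with that of Gpx1. Gpx2 and Gpx7 belong to the family but not to the 39 genes.

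Gpx1: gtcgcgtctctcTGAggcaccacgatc
Gpx2: gtggcgtcactcTGAggaacaactacc
Gpx3: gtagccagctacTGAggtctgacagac
Gpx4: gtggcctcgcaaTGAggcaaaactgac
Gpx7: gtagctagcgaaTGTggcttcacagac
Gpx8: gtggctagtgacTGCcgcttcacagac

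The codon is number 47 of 201 in Gpx1 (chromosome 9, 108339451 to 108339453), 73 of 226 in Gpx3 (chromosome 11, 54907256 to 54907258) and 129 of 253 in the longest form of Gpx4 (chromosome 10, 80054737 to 80054739). Gpx8 had a cysteine codon at place 79 of 209 (chromosome 13, 113045661 to 113045663, minus strand). The encoded residues of Gpx1 were identical to those of Gpx2 at 63.7% of aligned places and to those of Gpx8 at 33.7%, while Gpx7 and Gpx8 shared 48.9%. Genes with TGA moved in both directions, since Gpx1 and Gpx2 rose while Gpx3 and Gpx4 fell, and both genes with a cysteine codon fell.

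Gpx1, the abundant cytosolic enzyme, was at 371, 358 and 353 FPKM in WT and at 428, 432 and 400 FPKM in p53-deficient libraries (log2 fold change 0.22, SE 0.0375, limma adjusted p = 0.0021). Gpx4, which reduces lipid peroxides in membranes and protects cells from ferroptosis, was at 235, 235 and 229 FPKM in WT and at 150, 136 and 145 FPKM in p53-deficient libraries. Its fall of 1.62-fold was the largest among the 5 members most abundant in WT (log2 fold change -0.70, SE 0.0386, limma adjusted p = 1.01e-05). A transcript of 99.7% identity over 733 bases, Gpx4-ps2, took reads worth 57.2 FPKM on average. With its reads added to those of Gpx4 the log2 fold change was -0.71 (adjusted p = 1.7e-05).

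Gpx3, a secreted plasma enzyme, was at 14.5, 14.7 and 15.3 FPKM in WT and at 3.04, 2.34 and 2.38 FPKM in p53-deficient libraries, 5.74-fold lower (log2 fold change -2.15, SE 0.0786, limma adjusted p = 1.66e-06). Gpx8, which is anchored in the membrane of the endoplasmic reticulum, was at 21.7, 21.6 and 19.7 FPKM in WT and at 5.81, 5.94 and 5.19 FPKM in p53-deficient libraries, 3.72-fold lower (log2 fold change -1.73, SE 0.0579, limma adjusted p = 1.17e-06). Neither gene overlapped between the groups, and at least 49 reads of Gpx3 and 72 of Gpx8 were counted in every library. The fibroblast markers fell over the same libraries from a summed 1223 to 294 FPKM, and single ones were 1.59 to 12.7 times lower. Their part in the falls of Gpx3 and Gpx8 was not tested. Within the 4 member peroxidases, Gpx1 made up 57.3% ± 0.422 of the summed FPKM in WT and 73.5% ± 1.38 in p53-deficient libraries, and Gpx4 went from 37% ± 0.359 to 25.1% ± 1.39 (SD, n = 3 per group).

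**Figure D3:**
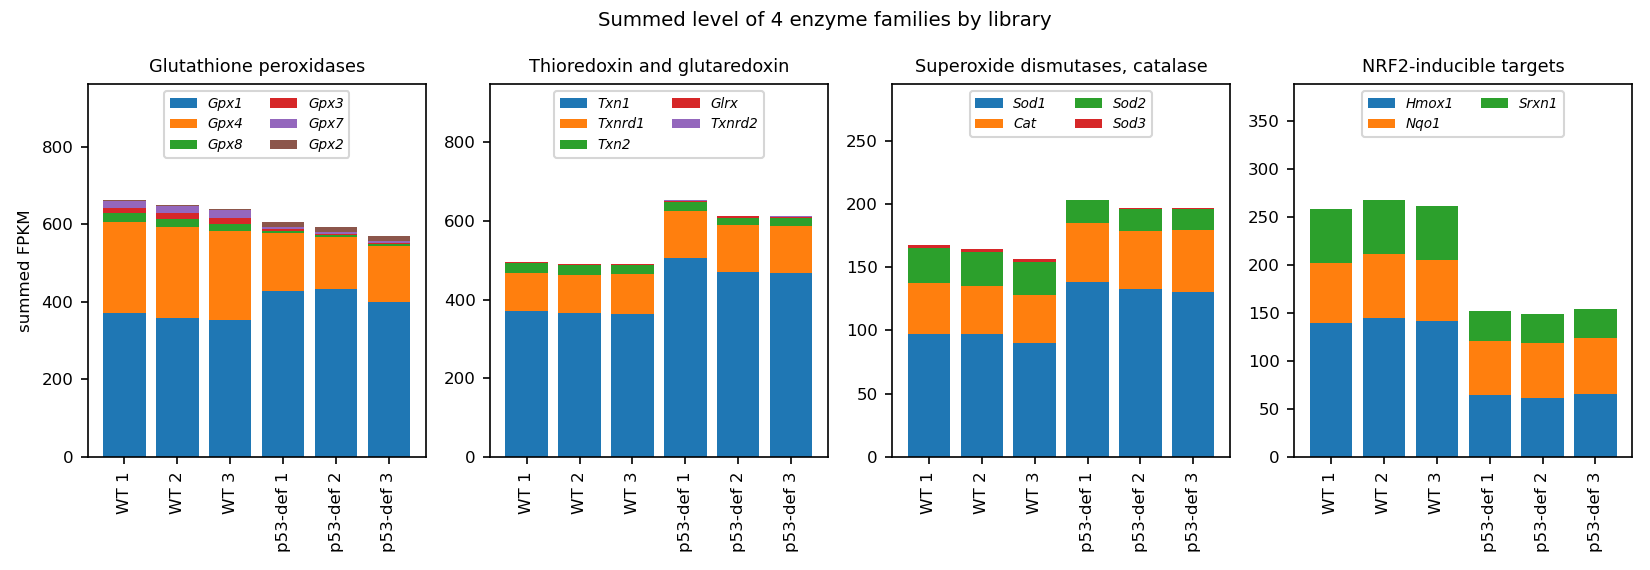
Summed FPKM of 4 enzyme families in each of the 6 libraries, stacked by gene, with bars starting at 0 and with Gpx2 and Gpx7 included in the peroxidase panel. Thioredoxin system and superoxide dismutase sums are higher in all 3 p53-deficient libraries, while the peroxidase and NRF2-inducible sums are lower, with a larger part for Gpx1 in the first panel.

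The cytosolic thioredoxin system rose. Txn1 encodes thioredoxin, the small protein that reduces peroxiredoxins and ribonucleotide reductase. It was the most abundant of the 39 in WT, at 371, 365 and 363 FPKM, and stood at 506, 469 and 468 FPKM in p53-deficient libraries (log2 fold change 0.39, SE 0.0357, limma adjusted p = 9.91e-05). Txnrd1, its NADPH-dependent reductase and also a selenoprotein, was at 96.4, 98.6 and 100 FPKM in WT and at 118, 119 and 119 FPKM in p53-deficient libraries (log2 fold change 0.27, SE 0.0226, limma adjusted p = 6.84e-05). Both genes were higher in each p53-deficient library than in any WT library. Glrx, a glutaredoxin that removes glutathione from proteins, rose from 2.66 ± 0.191 to 3.61 ± 0.409 FPKM (log2 fold change 0.33, limma adjusted p = 0.00865).

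Txn2 and Txnrd2 encode the mitochondrial thioredoxin and its reductase. Txn2 went from 23.8 ± 0.597 to 21.1 ± 1.52 FPKM (log2 fold change -0.17, limma adjusted p = 0.025), a call that ended when WT replicate 1 or 2 or p53-deficient replicate 2 or 3 was left out (adjusted p between 0.0567 and 0.0793). Txnrd2 was at 1.72, 1.67 and 1.84 FPKM in WT and at 2.12, 1.81 and 1.85 FPKM in p53-deficient libraries and did not pass (95% interval -0.06 to 0.24), although it did with quantile normalization (0.21, adjusted p = 0.0249). As a sum, the 5 genes of this group held 491 to 497 FPKM in WT and 612 to 653 FPKM in p53-deficient libraries, 1.27-fold more.

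Peroxiredoxins, which reduce peroxides, most of them with electrons from thioredoxin, had the smallest median absolute log2 fold change of the 9 role groups, 0.12. Prdx1, the most abundant, was at 313, 316 and 306 FPKM in WT and at 307, 296 and 303 FPKM in p53-deficient libraries. The groups overlapped and the difference did not pass (log2 fold change -0.05, 95% interval -0.11 to 0.01), but it did with scaling by the median ratio (-0.15, adjusted p = 0.00111) and with voom weights (-0.05, adjusted p = 0.0469). Prdx3, the mitochondrial form, went from 46.3 ± 1.8 to 48.9 ± 0.268 FPKM without overlap and without passing (limma adjusted p = 0.0687), and it passed without WT replicate 2 (log2 fold change 0.11, adjusted p = 0.0157). Prdx4, which works in the endoplasmic reticulum and lies on the X chromosome, was the member of this group that rose, from 63.5, 57.7 and 61.5 FPKM to 72.8, 69.3 and 69.6 FPKM (log2 fold change 0.21, SE 0.0405, limma adjusted p = 0.00351). Prdx5, found in mitochondria, peroxisomes and cytosol, fell from 33.1, 31.7 and 30.7 FPKM to 24.6, 23.7 and 23.2 FPKM (log2 fold change -0.40, SE 0.0375, limma adjusted p = 0.000108). Exons of Trmt112 on the opposite strand cover 19.1% of its exon length. Prdx2 and Prdx6 fell by less, from 86.7 ± 0.611 to 79.7 ± 2.87 FPKM and from 99.7 ± 0.77 to 91.8 ± 1.35 FPKM (log2 fold changes -0.12 and -0.12). The share of Prdx1 in the summed level of the 6 genes was 48.9% ± 0.504 in WT and 48.9% ± 0.234 in p53-deficient libraries.

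Superoxide dismutases, which turn superoxide into hydrogen peroxide, moved in both directions, with Sod1 higher and Sod2 and Sod3 lower. Sod1, the cytosolic copper-zinc enzyme, was at 96.9, 97.1 and 90.1 FPKM in WT and at 138, 133 and 130 FPKM in p53-deficient libraries (log2 fold change 0.49, SE 0.038, limma adjusted p = 4.45e-05). After Nfe2l2 this was the largest rise among the 39. With reads of Gm8566, a transcript of 98% identity, added, the log2 fold change was 0.50. Sod2, the mitochondrial manganese enzyme, was at 27.9, 26.7 and 26.5 FPKM in WT and at 18.1, 17.4 and 17.3 FPKM in p53-deficient libraries (log2 fold change -0.59, SE 0.0314, limma adjusted p = 8.19e-06). Sod3, the extracellular enzyme, was low, at 1.98, 2.54 and 2.23 FPKM in WT and at 0.267, 0.301 and 0.349 FPKM in p53-deficient libraries. It fell 7.37-fold in the means (log2 fold change -1.31, SE 0.0825, limma adjusted p = 1.75e-05), where 487 reads were counted over the WT and 57 over the p53-deficient libraries. None of the 3 overlapped between the groups. The summed fibroblast markers were 4.17 times lower in the same libraries, and single ones 1.59 to 12.7 times. Their part in the fall of Sod3 was not tested. Cat encodes catalase, the peroxisomal enzyme that breaks down hydrogen peroxide. It rose from 40.3, 37.9 and 37.7 FPKM to 46.8, 45.9 and 48.8 FPKM (log2 fold change 0.28, SE 0.0369, limma adjusted p = 0.000557).

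Glutathione transferases, which join glutathione to electrophiles, held the deepest fall. Mgst1 (chromosome 6, 138140316 to 138156755), a microsomal transferase in the membranes of mitochondria and endoplasmic reticulum, was at 6.82, 6.55 and 5.81 FPKM in WT and at 0.685, 0.516 and 0.591 FPKM in p53-deficient libraries. The means differed 10.7-fold without overlap (log2 fold change -2.21, SE 0.0728, limma adjusted p = 1.1e-06), and 738 reads over the WT libraries stood against 62 over the others, 10.5 times as many after allowing for depth (95% exact binomial interval 8.13 to 13.9, counting error only). The Y-linked reads were 9.98 times and the pooled reads of the fibroblast markers 4.65 times lower in these libraries. Single fibroblast markers were 1.59 to 12.7 times lower in mean FPKM. The part of either in the fall of Mgst1 was not tested. Gsta4, which detoxifies the lipid peroxidation product 4-hydroxynonenal, was the most abundant transferase and fell from 305, 303 and 295 FPKM to 266, 239 and 252 FPKM (log2 fold change -0.26, SE 0.0415, limma adjusted p = 0.00155). Gstp1 fell from 211, 176 and 199 FPKM to 146, 142 and 146 FPKM (log2 fold change -0.43, SE 0.065, limma adjusted p = 0.00117). Near-identical transcripts of Gstp-ps and Gstp2 held 40.7% as much FPKM as Gstp1, and with their reads added the log2 fold change was -0.29 (adjusted p = 0.00502). Mgst3 rose from 6.23, 5.36 and 5.22 FPKM to 6.46, 7.18 and 7.65 FPKM (log2 fold change 0.29, limma adjusted p = 0.0148), and did not pass with scaling by the median ratio (0.21, adjusted p = 0.0613) or without WT replicate 2 (0.27, adjusted p = 0.0505). Gstm1 was at 36.7 ± 0.799 and 36.1 ± 3.0 FPKM and did not pass (95% interval -0.17 to 0.11), although it did without p53-deficient replicate 1 (log2 fold change -0.09, adjusted p = 0.0459).

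The 5 members of the pentose phosphate pathway and of NADPH supply moved by at most 1.28-fold. Other genes of this role moved further, as given below for H6pd, Idh2 and Tktl1. G6pdx, the X-linked gene of glucose-6-phosphate dehydrogenase, which commits glucose to the pathway, rose from 41.8, 39.3 and 41.9 FPKM to 49.8, 46.7 and 47.6 FPKM (log2 fold change 0.22, SE 0.0373, limma adjusted p = 0.00176). Exons of Ikbkg on the opposite strand cover 13.6% of its exon length. Pgd, the second NADPH-producing dehydrogenase, was at 51.6, 49.9 and 50.9 FPKM in WT and at 49.7, 48.7 and 48.6 FPKM in p53-deficient libraries and did not pass, though the groups did not overlap (95% interval -0.11 to 0.01). It was called lower with scaling by the median ratio (-0.15, adjusted p = 0.000832) and with quantile normalization (-0.15, adjusted p = 0.00103). In the non-oxidative branch, Tkt (transketolase) rose from 63.5 ± 0.755 to 70.3 ± 2.74 FPKM (log2 fold change 0.15, limma adjusted p = 0.00669), but did not pass under the same 2 scalings (0.04 and 0.06, adjusted p = 0.236 and 0.0886). Taldo1 (transaldolase) was at 115 ± 0.76 and 118 ± 4.38 FPKM without passing (95% interval -0.03 to 0.11). Me1, the cytosolic malic enzyme that makes NADPH from malate, fell from 21.1, 20.9 and 20.7 FPKM to 17.0, 15.8 and 16.1 FPKM (log2 fold change -0.34, SE 0.0321, limma adjusted p = 0.000116).

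**Figure D4:**
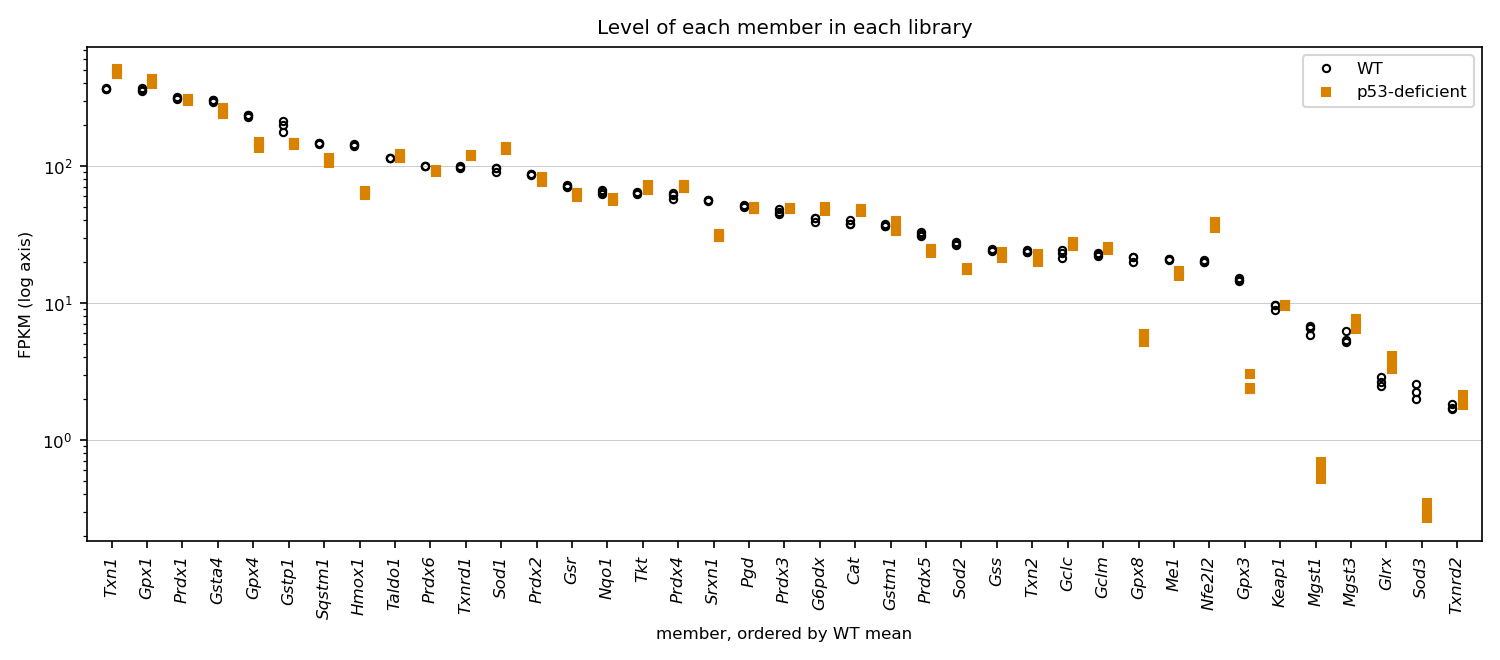
FPKM of each of the 39 genes in each library on a log axis, ordered by WT mean, with open circles for WT and squares for p53-deficient libraries. Levels run from 371 FPKM in WT for Txn1 and Gpx1 down to about 2 FPKM for Sod3 and Txnrd2, and the widest gaps between circles and squares are in Mgst1, Sod3, Gpx3 and Gpx8.

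Other genes of the same pathways, 87 in number and listed by function, were also called in both directions. Of these, 75 were tested, 29 were higher, 28 lower and 18 did not pass (76% called against 66.5% of all genes, median log2 fold change -0.04). With scaling by the median ratio 23 were higher and 37 lower. In the NRF2 system all 8 genes tested were called, 5 of them higher. Among genes of mean FPKM at least 1, the largest rises on the log2(FPKM + 1) scale were in Gpx2, a peroxidase known from the gut epithelium, and in Ggt1, Gsta3 and Tktl1. Gpx2 went from 2.62, 2.46 and 2.83 FPKM to 14.1, 13.3 and 13.5 FPKM, 5.16-fold higher (log2 fold change 2.01, SE 0.0496, limma adjusted p = 3.48e-07). Ggt1, the gamma-glutamyltransferase that starts the breakdown of extracellular glutathione, rose from 1.22 ± 0.152 to 3.5 ± 0.0947 FPKM, Gsta3 from 2.27 ± 0.242 to 5.54 ± 0.416 FPKM and the transketolase-like gene Tktl1 from 1.34 ± 0.147 to 3.43 ± 0.576 FPKM. By the ratio of means the order differs, and the genes that follow were chosen after their values were seen. Bach2, a repressor that competes for NRF2 sites, rose 7.58-fold from 0.152 ± 0.0117 to 1.15 ± 0.204 FPKM. The more abundant Bach1, a repressor of the same kind, went the other way, from 11.4 ± 0.00416 to 9.5 ± 0.295 FPKM (log2 fold change -0.24, limma adjusted p = 0.000607). Osgin1, an NRF2 target, rose 2.77-fold from 0.77 ± 0.104 to 2.13 ± 0.00859 FPKM. Abcc4, an exporter and NRF2 target, rose 1.91-fold.

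The largest falls on this second list, on the same scale and above the same mean, were in Ephx1, Chac1, Gpx7 and Gsto2. Ephx1, the microsomal epoxide hydrolase, was listed as an NRF2 target, like Osgin1 and Abcc4. It went from 36.4, 37.1 and 34.3 FPKM to 3.24, 3.06 and 4.1 FPKM, 10.4-fold lower (log2 fold change -3.05, SE 0.087, limma adjusted p = 6.14e-07). Chac1, which degrades glutathione and is induced by amino acid stress, fell from 19.5 ± 1.78 to 4.96 ± 0.499 FPKM. Gpx7, the closest relative of Gpx8 in the family and like it a protein of the endoplasmic reticulum, fell from 17.9 ± 0.666 to 5.2 ± 0.908 FPKM. Gsto2, an omega-class transferase, went from 2.09 ± 0.214 to 0.382 ± 0.0895 FPKM. Also chosen after their values were seen were Gstm3, a transferase that fell 3.62-fold by the ratio of means, against 3.45-fold for Gpx7, and genes of NADPH supply. H6pd, the hexose-6-phosphate dehydrogenase of the endoplasmic reticulum, fell 2.35-fold, and Idh2, the mitochondrial isocitrate dehydrogenase, fell 1.96-fold. The summed fibroblast markers were 4.17 times lower in the same libraries, and single ones 1.59 to 12.7 times. Their part in these falls was not tested. Slc7a11, the cystine importer that feeds glutathione synthesis, was also listed as an NRF2 target and was chosen after its values were seen. It was at 0.699, 0.853 and 0.827 FPKM in WT and at 0.171, 0.224 and 0.142 FPKM in p53-deficient libraries, and its mean of 0.486 FPKM left it under the filter and untested.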

How the data were processed

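Messenger RNA was purified with poly-T beads and sequenced from 3 WT and 3 p53-deficient libraries, grouped by their titles. The authors deposited FPKM per gene and library, with a gene length for each gene, the other deposited value that was used. Per the submitters' processing notes, HISAT2 2.0.5 and featureCounts 1.5.0-p3 were used with build mm10. Their roles, strand setting and treatment of reads with several matches are not given in the sources used here. FPKM times gene length gave whole multiples of 1 step in 100% of values above 0 (tolerance 0.001), from which reads were rebuilt.

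The test was limma 3.58.1 (R 4.3.3) on log2(FPKM + 1), a scale that understates changes of low genes. Genes below a mean FPKM of 0.5 were left out. The fit had a variance trend, was two-sided and used Benjamini-Hochberg adjustment over 15144 genes, with calls at an adjusted p under 0.05. It was also run on simulated data in which few genes changed, unlike these data. That run does not measure how reliable the calls here are. An exact permutation test of 3 against 3 cannot go below 0.1. Fold changes in the text without log2 are ratios of mean FPKM. Near-identical copies (BLAST+ 2.17.0, 95% identity or more, spanning 50% or more of the shorter transcript and a minimum of 100 bases) were found for 7 of the 39 genes. Coordinates of 38 of the 39 genes matched GENCODE M21. Promoters came from RefSeq, and codons were aligned with Biopython 1.88.

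Every member was named, with Trp53, the 3 most abundant fibroblast markers, 3 pluripotency genes and the 4 largest rises and 4 largest falls of the other pathway genes (called, mean FPKM at least 1, no overlap). The members and all lists were chosen with earlier results of these data known. Same-numbered libraries of the groups did not deviate together. Plots were made in Python 3.11.15 (matplotlib 3.10.9).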

Additional observations from a re-analysis of the deposited data

How the results depend on the processing

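The counts of members called higher and lower, of other pathway genes and of fibroblast markers stayed within 1.5 times the reported values under every alternative run. These were a pseudocount of 0.1, no filter on low values, a stricter filter (mean FPKM 5 or more), scaling by the median ratio, quantile normalization, no variance trend, the replicate number as a block, voom weights on rebuilt reads, an adjusted p under 0.01, each library left out in turn, and, chosen after seeing the data, reads of near-identical copies added to the 7 members that have them. Over all genes, 5944 of 7752 were called with a mean FPKM of at least 5, where fewer genes are tested. Among members, 25 of 39 kept direction and call in every alternative that tested them. Mgst1, Glrx, Sod3 and Txnrd2 were not tested under the stricter filter. Of the 32 called, 28 were called in the same direction with scaling by the median ratio, 29 with quantile normalization and 31 with the replicate block, which ended the call of Gss alone. The replicate numbers did not pair the libraries (correlations of deviations -0.03, 0.01 and 0.01), and the block left 9766 genes called. Signs turned for members that had not passed: Keap1 was at -0.062, Prdx3 at -0.024 and Taldo1 at -0.063 with scaling by the median ratio, and Prdx3 at -0.014 and Taldo1 at -0.054 with quantile normalization. Leaving out 1 library gave -0.0058 (without WT replicate 2) to 0.049 for Keap1 and -0.093 to 0.017 (without p53-deficient replicate 3) for Gstm1. With 1 library left out, 13 members were higher and 17 to 20 lower, with 9193 to 9746 genes called in all. Depth limits the lowest members: at least 12 reads of Mgst1 and 13 of Sod3 were counted in a library.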

Other observations

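Selenoprotein genes beyond the peroxidases and thioredoxin reductases were found through the selenocysteine codons annotated in GENCODE M21, a list made after the data were seen. Of 24 such genes 20 were tested, and in p53-deficient cells 9 of them rose and 7 fell (80% called against 66.5% of all genes, median log2 fold change 0.12). Selenon, which encodes a protein of the endoplasmic reticulum, went from 6.11 ± 0.369 to 1.26 ± 0.102 FPKM (log2 fold change -1.66, limma adjusted p = 1.66e-06), and Selenop, the secreted selenium carrier, from 2.24 ± 0.439 to 0.532 ± 0.195 FPKM (log2 fold change -1.08, adjusted p = 0.000428). Selenoh, a nuclear redox protein, rose from 147 ± 0.823 to 197 ± 6.78 FPKM (log2 fold change 0.43, adjusted p = 2.62e-05). Selenow, one of the most abundant, was at 220 ± 1.08 and 218 ± 12.7 FPKM and did not pass.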
